A study of Mus musculus with 12 samples.

Results

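The change in polysome-bound RNA between metaphase I (MI) and metaphase II (MII) was examined in wild-type (WT) mouse oocytes. WT MII oocytes had been cultured for 16 h and WT MI oocytes for 8 h, and each stage was represented by 2 libraries. All genes with a mean of at least 1 FPKM (fragments per kilobase, relative to the size of the library) over the 12 libraries of the series were tested, which were 11667 of the 23235 genes listed. The mice were C57BL/6 and 21 days old, and the series also holds MII and MI oocytes of Cnot6l-/- mice and germinal vesicle (GV) oocytes of both genotypes collected 48 h after gonadotropin (PMSG) priming. These other 8 libraries entered the fit that estimated the spread of each gene, and the Cnot6l-/- MII and MI libraries served for a test of whether the change differed between genotypes. Cnot6l encodes a deadenylase subunit of the CCR4-NOT complex, and the labels do not say which portion of it is deleted or how. They do not state how many oocytes or mice were pooled for a library, or whether libraries 1 and 2 came from separate animals, so p-values measure only the spread between libraries, which may be technical.

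Between these stages the oocyte separates its homologous chromosomes, extrudes the first polar body, and assembles a second spindle without an intervening S phase. It then waits at MII for sperm, held by cytostatic factor, which acts through the Mos and MAP kinase pathway and through Emi2 (Fbxo43), an inhibitor of the anaphase-promoting complex. The chromosomes are not transcribed in this period, so proteins are made from stored mRNA: lengthening of the poly(A) tail at cytoplasmic polyadenylation elements draws some mRNAs onto polysomes, while deadenylation by CCR4-NOT removes others. Polysome-bound RNA measures which mRNAs are carried by several ribosomes, and a lower value can stem from less mRNA or from fewer ribosomes on it.

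Total deposited FPKM was 889989 and 884142 in the WT MII libraries, against 1040466 and 1063273 in the WT MI libraries. Fewer genes were listed above 0 at MII (9116 and 9064) than at MI (10578 and 10487), and the other 8 libraries listed 11936 to 13319. The 2 WT MII libraries resembled each other least of the 6 pairs of replicates, with Pearson r = 0.865 across genes on the log2(FPKM + 1) scale, against 0.886 for WT MI and 0.894 to 0.949 for the rest. A value of 0 in 1 library beside more than 20 FPKM in its replicate was found for 105 genes at WT MII and for 39 genes at WT MI. Read counts were not used here and depth is unknown. All 11 oocyte markers were above 10 FPKM in each of the 4 libraries, with a summed level of 26617 to 27265 FPKM at MII and 51973 to 52939 FPKM at MI. Of 29 cumulus and granulosa markers, 18 were listed at 0 in both MII libraries and 11 in both MI libraries, with sums of 85.9 to 124 FPKM at MII and 184 to 191 FPKM at MI. Above 10 FPKM were 3 of the 29 in both MII libraries and 5 in both MI libraries. Cyp19a1 had 47.6 and 32.8 FPKM at MII, against 36.5 and 32.8 FPKM at MI. Ptx3 and Esr2 were also above 10 FPKM in all 4 libraries, whereas Foxl2, Lhcgr, Areg and Ereg were at 0 in all 4. The part of follicle cells in the results was not tested. The 24 theca, stroma, endothelium and blood markers summed to 44.0 to 82.9 FPKM at MII and 34.5 to 46.0 FPKM at MI, and 17 of them were listed at 0 in both libraries at each stage. Cnot6l stood at 65.2 and 49.4 FPKM in WT MII and 68.5 and 47.9 FPKM in WT MI oocytes. In Cnot6l-/- oocytes it was 16.4 and 16.0 FPKM at MII and 23.5 and 16.5 FPKM at MI, lower than in every WT library of these stages though not 0.

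More polysome-bound transcripts fell than rose between MI and MII. At an adjusted p under 0.05 (limma, Benjamini-Hochberg over all genes tested), 663 genes were higher in WT MII than in WT MI, 5.68% of those tested, and 1911 genes were lower, 16.4%. In all 663 and all 1911, both MII libraries lay above or below both MI libraries. With 2 libraries per stage the call nearly requires this, so it adds no support to a call. Over all genes tested, both MII libraries lay above both MI libraries in 2037 (17.5%) and below them in 3598 (30.8%). Of the genes that rose, 451 rose by at least 1 on the log2(FPKM + 1) scale and 26 by at least 3. Of those that fell, 1730 fell by at least 1 and 432 by at least 3. The median change of called genes was 1.28 for increases and -2.16 for decreases, and that of all genes tested was -0.27. Each FPKM value is relative to its own library, so a lower share of the polysome-bound pool, fewer copies per oocyte and fewer oocytes holding a transcript cannot be told apart.

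The split between increases and decreases depended on the scaling. After the libraries were scaled to a common median, 1289 genes (11%) were higher and 1573 (13.5%) lower at MII, and the median change of all genes was -0.02. All 663 increases and 1484 of the 1911 decreases (12.7% of genes tested) were called in the same direction under both scalings, and changes below are given on the deposited scale unless stated. Shares of a gene group stand beside its counts, higher before lower, and the shares of all genes were 5.68% and 16.4% as deposited and 11% and 13.5% after median scaling. A fit of the 6 WT libraries alone called 305 of 11667 genes higher and 975 lower, beside which all later counts from that fit are to be read. A fit with separate weights for each group, which gave WT MII the lowest weight, called 263 higher and 1251 lower. Fitted on the 4 WT MI and MII libraries alone, no gene reached an adjusted p under 0.05 in limma (lowest 0.0582), while unadjusted p-values under 0.05 were found for 857 higher and 1780 lower genes. Without a trend of the spread on abundance, 519 genes were higher and 1614 lower, and the calls of the abundant genes Bcl2l10, Btg4, Ccnb1, Cdca8, Cnot7, Eif2b1, H1foo, Kif23, Ldhb, Nlrp5, Nup37, Oas1d, Oog3, Paip1, Prc1, Pttg1, Rpl41, Sall4 and Zp2 were not kept.

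**Figure D1:**
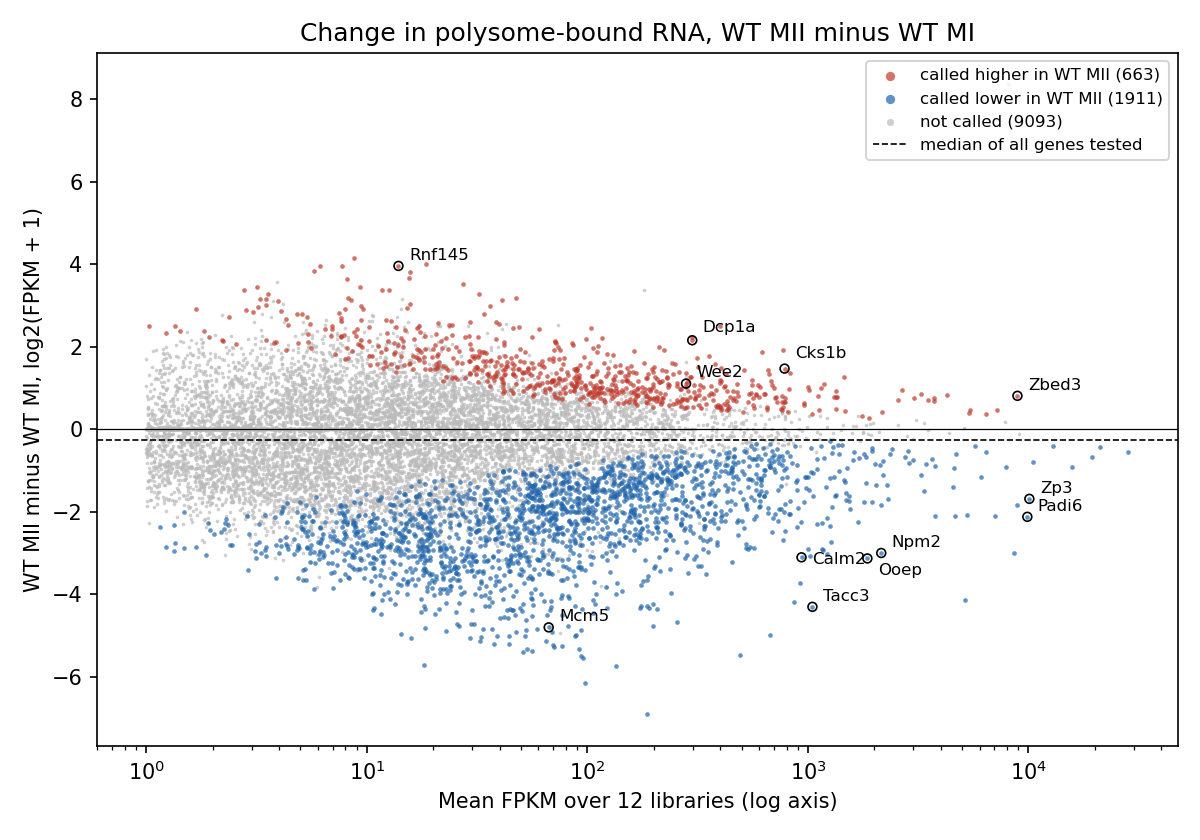
Change between stages (WT MII minus WT MI, log2(FPKM + 1)) against the mean FPKM of each gene over 12 libraries (log axis); each point is a gene, colored by its call, and the dashed line is the median of all genes tested at -0.27. Decreases outnumber increases among abundant transcripts, with Tacc3 at -4.30, Ooep at -3.13 and Cks1b at 1.47.

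Calls were concentrated in abundant transcripts. Of 670 genes with a mean of at least 300 FPKM, 19% rose and 49.4% fell, whereas of 2077 genes between 1 and 3 FPKM 0.626% rose and 1.06% fell. Between 100 and 300 FPKM, 14.8% rose and 35.5% fell. The part of measurement precision, which is higher for abundant genes, in these shares was not tested. Shares of all genes set beside gene groups below are not matched for abundance. How far the level of its members accounts for the share of a group was not tested.

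Among transcripts present in all 4 libraries, the largest increases included a membrane ubiquitin ligase, a polarity protein and factors of transcription. Rnf145, an endoplasmic reticulum ubiquitin ligase, had 23.6 and 41.3 FPKM in WT MII oocytes, against 0.86 and 1.31 FPKM in WT MI oocytes, a change of 3.96 ± 0.48, adjusted p = 0.000222. Both of its MII values lay far above both MI values. Llgl2, a cell polarity protein related to fly lethal giant larvae, had 137 and 59.6 FPKM at MII, against 18.2 and 4.63 FPKM at MI (3.14 ± 0.58, adjusted p = 0.0032). Taf10, a subunit of the general transcription factor TFIID, had 38.2 and 85.2 FPKM at MII, against 5.21 and 7.72 FPKM at MI (2.98 ± 0.48, adjusted p = 0.00145). E2f1, a transcription factor of the cell cycle, had 63.8 and 37.8 FPKM at MII, against 8.50 and 4.55 FPKM at MI (2.79 ± 0.55, adjusted p = 0.00468). In none of them did the stages overlap, although the MII replicates of Llgl2 and Taf10 differed widely. The call for Llgl2 was not kept in the 6 WT libraries alone.

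Among transcripts present in all 4 libraries, the largest decreases included genes of ribosome assembly, replication, the proteasome and the spindle. Gnl2, a GTPase of ribosome assembly, had 0.45 and 0.87 FPKM in WT MII oocytes, against 77.3 and 48.3 FPKM in WT MI oocytes (-5.24 ± 0.37, adjusted p = 5.48e-06). Mcm5, a subunit of the replicative helicase, had 0.56 and 0.54 FPKM at MII, against 44.0 and 40.6 FPKM at MI (-4.80 ± 0.30, adjusted p = 2.43e-06). Psmc1, an ATPase of the proteasome base, had 4.35 and 3.35 FPKM at MII, against 148 and 114 FPKM at MI (-4.76 ± 0.25, adjusted p = 6.32e-07). In all 3 genes both MII values lay far below both MI values. Zw10, which works at kinetochores, had 2.39 and 0.99 FPKM at MII, against 50.03 and 68.0 FPKM at MI (-4.51 ± 0.33, adjusted p = 7.06e-06). Fen1, the flap endonuclease of lagging-strand synthesis, had 1.38 and 1.34 FPKM at MII, against 31.5 and 80.3 FPKM at MI (-4.44 ± 0.41, adjusted p = 3.66e-05). Tacc3, which stabilizes spindle microtubules, was the most abundant of these genes, with 31.1 and 32.3 FPKM at MII, against 597 and 697 FPKM at MI (-4.30 ± 0.11, adjusted p = 4.33e-09). Its replicates differed little at either stage.

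Many transcripts that are drawn onto polysomes during maturation carry a cytoplasmic polyadenylation element, so the ends of annotated transcripts were searched for it. The letters searched were TTTTAT and TTTTAAT, on the transcript's own strand, in the last 100 bases of the longest protein-coding transcript per gene (GENCODE annotation of NCBIM37, the build also called mm9). The element was found in 33.8% of 647 genes called higher, 11.7% of 1858 called lower and 20.1% of those not called, against 19.5% of all 11092 tested genes with an annotated transcript. In the last 200 bases the shares were 43.7% of genes called higher, 18.4% of those called lower and 28.6% of all. The order was the same among genes that also hold a polyadenylation signal in the last 50 bases, with 36.3% of genes called higher and 11% of genes called lower. Of genes not called that had a mean of at least 30 FPKM, 23.5% held the element. At least 100 annotated bases of 3′ untranslated region were present in 615 of the 647 genes called higher and 1673 of the 1858 called lower. In the others the window can hold coding bases, and the part of this in the shares was not tested. Base composition moved with these shares: the last 100 bases had a median A and T content of 67% in genes called higher, 61% in genes called lower and 64% in all genes, and its part in the difference was not tested.

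**Figure D2:**
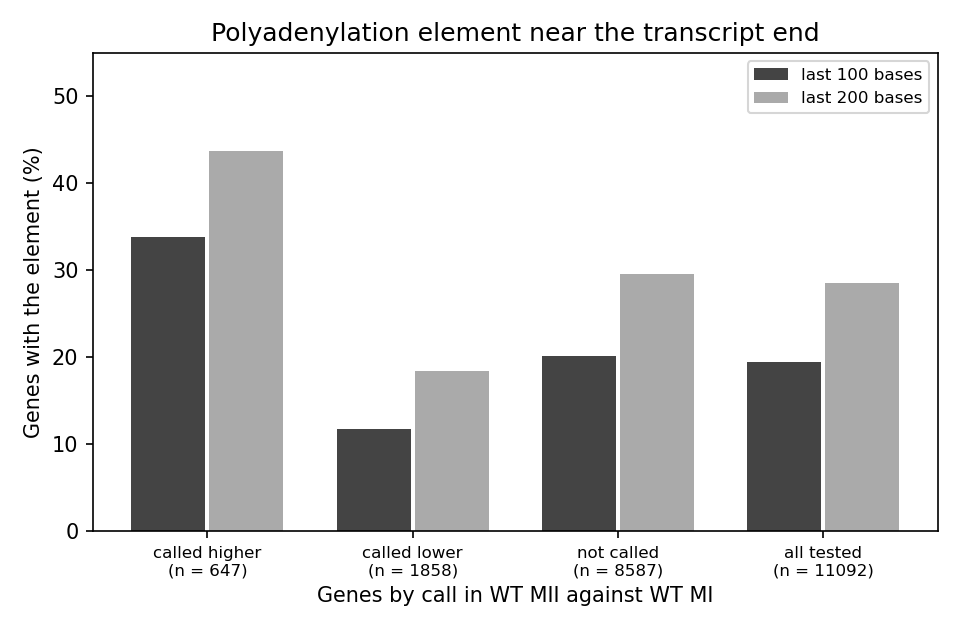
Share of genes (%) whose annotated transcript holds TTTTAT or TTTTAAT in its last 100 (dark) or last 200 (light) bases, by call in WT MII against WT MI; n is the number of genes with an annotated transcript. The share is 33.8% of called increases and 11.7% of called decreases for the last 100 bases.

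The following sites are shown because their genes carry the results on cell cycle control, mRNA decay and oocyte proteins; they were picked after the values were seen. Each is 30 bases of the transcript strand in mm9, 5′ to 3′, with the element in capitals. Ccnb1, Cks1b, Wee2, Bub1b, Dcp1a and Srp14 rose at MII. As deposited, Btg4 and Gdf9 fell at MII although their annotated transcripts hold the element. The decrease of Btg4 was not called after median scaling. Its site lies beyond the end of the gene given with the deposited values (position 50927805), and its transcript has no polyadenylation signal in the last 50 bases.
Ccnb1: tctcatttgctgTTTTAATttatacatctg (chr13:101548731-101548760, minus strand)
Cks1b: ttgattaaaggaagttTTTTATaatcttaa (chr3:89219394-89219423, minus strand)
Wee2: tgtaaataaagaTTTTATcttatccaaaga (chr6:40416783-40416812, plus strand)
Bub1b: tttcactgtgtaTTTTATaataaaatagtt (chr2:118467289-118467318, plus strand)
Dcp1a: gcaaatatatttTTTTAATaaaatttcaaa (chr14:31340195-31340224, plus strand)
Srp14: ttactgtaatagTTTTATtaaaagttgtgt (chr2:118301593-118301622, minus strand)
Btg4: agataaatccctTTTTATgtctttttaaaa (chr9:50927902-50927931, plus strand)
Gdf9: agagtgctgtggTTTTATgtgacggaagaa (chr11:53251356-53251385, plus strand)
In these transcripts the element began between 14 bases (Cks1b) and 144 bases (Ccnb1) before the annotated end. No such letters were found in the last 200 bases of Ooep, Padi6, Tle6, Zp3, Npm2, Tacc3, Actg1, Cdk1, Pttg1 or Mos, which says only that they are not in this window. In Zp3, Mos and Tle6 the annotated 3′ untranslated region has only 13, 126 and 130 bases, so the window also holds coding bases. A match is a description of the sequence and not a measured site of regulation.

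The annotated transcripts of called genes also differed in length. The median was 3351 bases for genes called higher and 1966 bases for genes called lower, against 2835 bases for all genes. Median coding length was 1575 bases for genes called higher and 993 bases for genes called lower, and the median 3′ untranslated region, among transcripts with at least 100 annotated bases of it, was 1132 bases long in genes called higher and 664 bases long in genes called lower.

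The cyclin Ccnb1 and the Cdk1 regulators Cks1b and Wee2 rose, while Cdk1 itself fell. Of 18 tested genes of cyclin B and Cdk1 control, 3 rose and 4 fell (16.7% and 22.2%, against 5.68% and 16.4% of all genes), and 4 rose and 4 fell after median scaling, with a median change of -0.46 (-0.09 after median scaling). Ccnb1, the main mitotic cyclin, had 2709 and 2911 FPKM in WT MII oocytes, against 2096 and 2122 FPKM in WT MI oocytes (0.41 ± 0.089, adjusted p = 0.00755). Cks1b, a small Cdk-binding protein, had 1575 and 1568 FPKM at MII, against 502 and 639 FPKM at MI (1.47 ± 0.19, adjusted p = 0.000312). Wee2, the oocyte kinase that inhibits Cdk1, had 379 and 361 FPKM at MII, against 213 and 137 FPKM at MI (1.11 ± 0.19, adjusted p = 0.0022). In each of these the lower MII library exceeded the higher MI library. Cdk1, the catalytic partner of cyclin B, had 2.16 and 3.67 FPKM at MII, against 54.0 and 49.3 FPKM at MI (-3.77 ± 0.29, adjusted p = 9.96e-06), with both MII values far below both MI values.

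In the Mos and MAP kinase pathway 1 of 10 tested genes rose and 1 fell (10% and 10%, against 5.68% and 16.4% of all genes), and 3 rose and 1 fell after median scaling. The median change was -0.27 (0.10 after median scaling). Mos, the kinase upstream of MAP kinase in cytostatic factor, had 2238 and 2088 FPKM in WT MII oocytes, against 2219 and 2281 FPKM in WT MI oocytes, and the libraries of the stages overlapped (-0.06 ± 0.077, adjusted p = 0.665). After median scaling the change of Mos was 0.32 with an adjusted p of 0.0192, so its direction and call depended on the scaling. The gene that fell was Mapk3, which encodes ERK1 and had 326 and 424 FPKM at MII, against 842 and 942 FPKM at MI (-1.26 ± 0.15, adjusted p = 0.000172), and its decrease was called under both scalings. Leaving out WT MI library 2 raised the count of increases to 2, and leaving out WT MI library 1 or WT MII library 2 raised the count of decreases to 2.

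The anaphase-promoting complex and its regulators showed 1 increase and 6 decreases among 21 tested genes (4.76% and 28.6%), a balance that turned round with the scaling, since 4 rose and 2 fell after median scaling. The median change was -0.26 (0.11 after median scaling). The single increase was not called without WT MII library 1 or without any Cnot6l-/- MI or MII library, 2 genes rose without either Cnot6l-/- GV library, and the decreases numbered 3 without WT MI library 1. Anapc2, the cullin subunit of the complex, had 1.52 and 4.77 FPKM at MII, against 49.1 and 37.2 FPKM at MI (-3.52 ± 0.41, adjusted p = 0.000184). Fbxo5, which encodes the inhibitor Emi1, had 36.6 and 12.5 FPKM at MII, against 179 and 106 FPKM at MI (-2.62 ± 0.42, adjusted p = 0.00145). Its paralog Fbxo43, encoding the MII-arrest factor Emi2, had 199 and 208 FPKM at MII, against 93.6 and 136 FPKM at MI, with both MII libraries above both MI libraries but a change of 0.84 ± 0.27, adjusted p = 0.051. Cdc20, the co-activator that starts anaphase, had 1020.3 and 1085 FPKM at MII, against 828 and 784 FPKM at MI and a change of 0.38 ± 0.15, adjusted p = 0.0937. After median scaling the adjusted p was 0.00864 for Fbxo43 and 0.00486 for Cdc20, each with a positive change. Pttg1, which encodes securin, the inhibitor of separase, was the second most abundant entry at MII, with 22801 and 23423 FPKM at MII, against 30652 and 31147 FPKM at MI (-0.42 ± 0.036, adjusted p = 2.15e-05). Its replicates were nearly equal, but the change was -0.05 after median scaling (adjusted p = 0.397), so the decrease was not called on that scale.

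Spindle checkpoint and kinetochore genes moved in both directions. Of 26 tested, 3 rose and 9 fell (11.5% and 34.6%), and 3 rose and 6 fell after median scaling (median change -0.38, and -0.06 after median scaling), and 1 rose when WT MI library 2 was left out. Bub1b, which encodes the checkpoint protein BubR1, had 1729 and 1804 FPKM in WT MII oocytes, against 959 and 822 FPKM in WT MI oocytes (0.99 ± 0.089, adjusted p = 3.02e-05). Its partner kinase Bub1 had 0.45 and 2.91 FPKM at MII, against 21.4 and 28.8 FPKM at MI (-3.44 ± 0.48, adjusted p = 0.000623). Spc25, a subunit of the Ndc80 complex, had 5.17 and 15.4 FPKM at MII, against 40.3 and 67.3 FPKM at MI (-2.40 ± 0.41, adjusted p = 0.00221), a call not kept in the 6 WT libraries alone. Cenpq, a protein of the inner kinetochore, had 13.7 and 4.63 FPKM at MII, against 164 and 207 FPKM at MI (-4.35 ± 0.40, adjusted p = 3.52e-05). The abundant Bub1b therefore rose while the less abundant Bub1, Spc25 and Cenpq fell.

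Of 10 tested genes of Aurora kinases and the chromosomal passenger complex 2 rose and 3 fell (20% and 30%), and 4 rose and 2 fell after median scaling. Without WT MII library 1 the increases numbered 1. Cdca8, which encodes the subunit borealin, had 919 and 703 FPKM at MII, against 485 and 456 FPKM at MI (0.77 ± 0.15, adjusted p = 0.0043). Birc5, which encodes survivin, had 683 and 793 FPKM at MII, against 2582 and 2672 FPKM at MI (-1.83 ± 0.078, adjusted p = 1.49e-07). The kinase Aurkb had 0.52 and 1.53 FPKM at MII, against 18.4 and 10.4 FPKM at MI (-2.92 ± 0.47, adjusted p = 0.00146). Both MII values of Birc5 lay far below both MI values, and Cdca8 moved the other way.

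Genes of the acentriolar spindle poles and microtubules had 2 increases and 6 decreases among 29 tested (6.9% and 20.7%, against 5.68% and 16.4% of all genes), and 6 rose and 5 fell after median scaling. The median change was 0.07 (0.31 after median scaling), and 1 increase was called when a GV library of WT, a MI library or a Cnot6l-/- MII library was left out. Tubb5, a beta-tubulin, had 21.1 and 17.6 FPKM at MII, against 162 and 113 FPKM at MI (-2.75 ± 0.24, adjusted p = 2.54e-05). Another beta-tubulin, Tubb4b, had 99.4 and 143 FPKM at MII, against 465 and 433 FPKM at MI (-1.90 ± 0.15, adjusted p = 1.45e-05). The midzone protein Prc1, which bundles antiparallel microtubules between separating chromosomes, had 794 and 819.5 FPKM at MII, against 560.5 and 552 FPKM at MI (0.54 ± 0.10, adjusted p = 0.00314). Kif23, the kinesin of the central spindle, had 865 and 924 FPKM at MII, against 512 and 552 FPKM at MI (0.75 ± 0.14, adjusted p = 0.0041). Kif17, a kinesin known from neuronal transport, had 22.8 and 22.0 FPKM at MII, against 133 and 91.3 FPKM at MI (-2.25 ± 0.22, adjusted p = 5.63e-05). The central-spindle pair Prc1 and Kif23 was thus higher in both MII libraries, and both tubulins were lower. Of 34 genes of the actin cap and cytokinesis 3 rose and 5 fell, the cytoplasmic actins among the decreases (8.82% and 14.7%), while 9 rose and 4 fell after median scaling. As deposited, 1 rose when a WT MII or a Cnot6l-/- MI library was left out. Actg1 had 42.9 and 40.8 FPKM at MII, against 489.8 and 489 FPKM at MI (-3.52 ± 0.15, adjusted p = 1.4e-07). Actb had 104 and 106 FPKM at MII, against 223 and 202 FPKM at MI (-1.01 ± 0.14, adjusted p = 0.000595). Cdc42, the small GTPase that polarizes the cortex over the spindle, had 154 and 164 FPKM at MII, against 294 and 285 FPKM at MI (-0.86 ± 0.14, adjusted p = 0.0019). Actins, tubulins and other families named here have near-identical copies, and how the authors assigned reads among copies is not given in the sources used here.

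**Figure D3:**
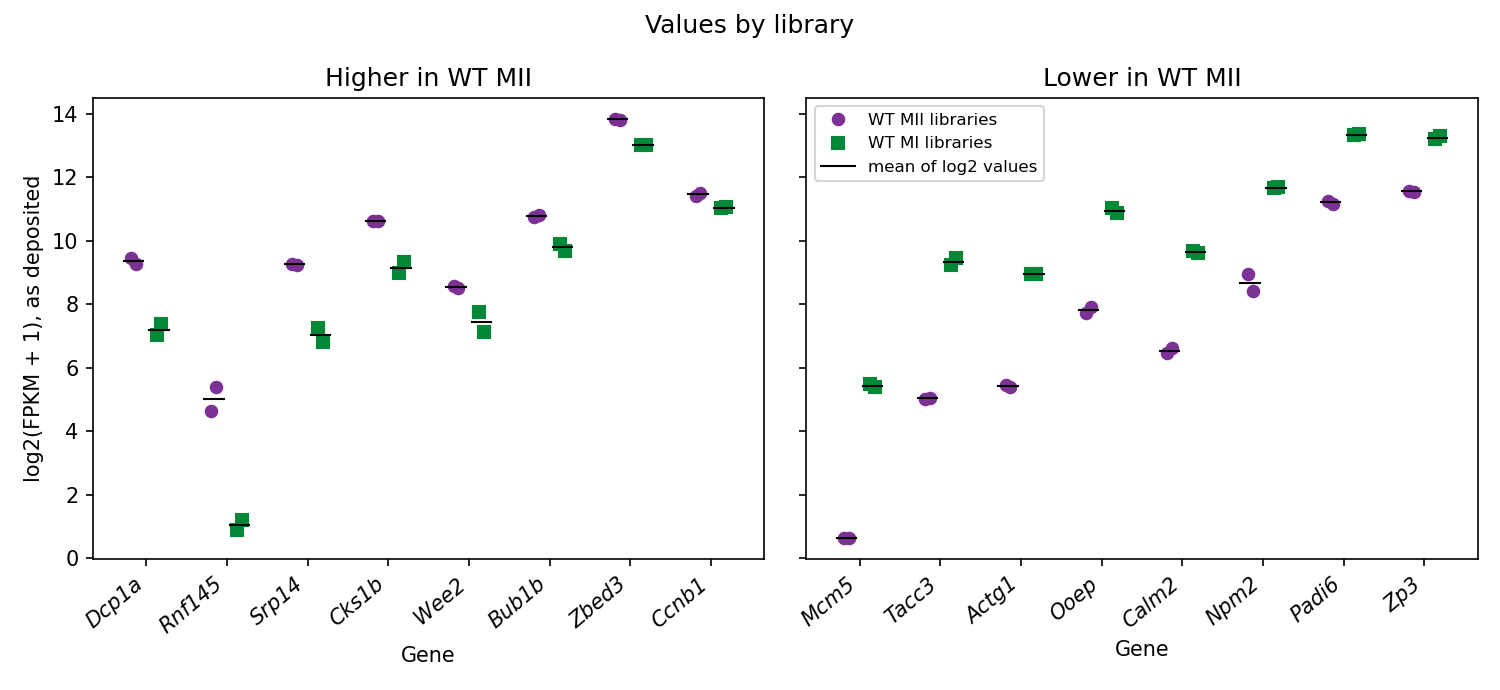
Values of the 2 WT MII libraries (circles) and the 2 WT MI libraries (squares) as log2(FPKM + 1) for 8 genes higher at MII and 8 genes lower at MII; bars are the means of the log2 values. The stages do not overlap in any of the 16 genes, from Ccnb1 at 0.41 to Mcm5 at -4.80. All 16 were picked from called genes, where such separation was found in every case.

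Condensin and cohesin genes numbered 24 tested, of which 3 rose and 4 fell (12.5% and 16.7%), and 7 rose and 4 fell after median scaling, with a median change of 0.49 (0.87 after median scaling). Smc4, an ATPase shared by both condensins, had 156 and 117 FPKM at MII, against 55.7 and 47.2 FPKM at MI (1.38 ± 0.20, adjusted p = 0.000743). Ncapg, a condensin I subunit, had 38.2 and 31.6 FPKM at MII, against 90.3 and 73.9 FPKM at MI (-1.21 ± 0.23, adjusted p = 0.00355). The condensin I subunit Ncaph had 6.46 and 28.3 FPKM at MII, against 82.0 and 92.1 FPKM at MI (-2.57 ± 0.51, adjusted p = 0.00463), a call not kept in the 6 WT libraries alone. Although no DNA is replicated between the divisions, 9 of 41 replication and licensing genes rose and 10 fell (22% and 24.4%), and 12 rose and 6 fell after median scaling. The increases numbered 4 without WT MI library 1 and 5 without WT MI library 2, and the decreases 6 without either, and 4 rose and 4 fell in the 6 WT libraries alone. Cdc45, a subunit of the replicative helicase, had 118 and 137 FPKM at MII, against 24.3 and 35.0 FPKM at MI (2.08 ± 0.28, adjusted p = 0.000457). Pola2, a subunit of DNA polymerase alpha, had 86.6 and 114 FPKM at MII, against 35.5 and 30.5 FPKM at MI (1.57 ± 0.32, adjusted p = 0.00541). Dscc1, a subunit of a clamp loader, was listed at 0 in both MII libraries and at 37.7 and 43.0 FPKM at MI (adjusted p = 1.15e-06). Cdc45 and Mcm5, subunits of the same helicase, moved in opposite directions.

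Genes of mRNA decay rose and fell in similar numbers, with Dcp1a among the increases. Of 21 decapping, uridylation and exonuclease genes, 6 rose and 5 fell (28.6% and 23.8%, against 5.68% and 16.4% of all genes), and 6 rose and 4 fell after median scaling. As deposited, the decreases numbered 3 without WT MI library 1 or WT MI library 2 and 2 in the 6 WT libraries alone. Dcp1a, the co-activator of the decapping enzyme, had 693 and 615 FPKM in WT MII oocytes, against 128 and 165 FPKM in WT MI oocytes (2.16 ± 0.18, adjusted p = 1.67e-05). Both MII values lay far above both MI values. Lsm6, part of the ring that binds deadenylated ends, had 17.8 and 13.1 FPKM at MII, against 43.7 and 41.6 FPKM at MI (-1.42 ± 0.29, adjusted p = 0.00548).

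In the CCR4-NOT group, which shortens poly(A) tails, 5 of 25 genes rose and 4 fell (20% and 16%, against 5.68% and 16.4% of all genes), while 7 rose and 1 fell after median scaling, with a median change of 0.23 (0.60 after median scaling). As deposited, the increases numbered 3 without WT MI library 1 or WT MI library 2 and 2 without WT MII library 2, and the decreases 2 without WT MI library 2, and 1 rose and 1 fell in the 6 WT libraries alone. Angel2, a member of the CCR4 nuclease family, had 314 and 367 FPKM at MII, against 159 and 123 FPKM at MI (1.27 ± 0.19, adjusted p = 0.00111). Cnot7, a catalytic deadenylase, had 484 and 608 FPKM at MII, against 354 and 381 FPKM at MI (0.56 ± 0.14, adjusted p = 0.019). That call was lost without WT MI library 1 (adjusted p = 0.088), without WT MII library 2 (adjusted p = 0.086), in the 6 WT libraries alone (adjusted p = 0.0887) and with separate weights for each group (adjusted p = 0.0799), over a range of 0.00095 to 0.177 across all Cnot7 alternatives. Btg4, the adaptor that recruits CCR4-NOT in oocytes, was among the abundant transcripts, with 4836 and 5113 FPKM at MII, against 6379 and 6704 FPKM at MI (-0.40 ± 0.045, adjusted p = 0.00016). After median scaling the change of Btg4 was -0.02 (adjusted p = 0.765), so the decrease was not called on that scale. The libraries of Cnot6l overlapped between the stages in WT oocytes (-0.01 ± 0.57, adjusted p = 1).

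Factors of cytoplasmic polyadenylation and poly(A) binding had 2 increases and 6 decreases among 23 tested genes (8.7% and 26.1%, against 5.68% and 16.4% of all genes), and 3 rose and 6 fell after median scaling. As deposited, the increases numbered 1 when WT MI library 1, WT MII library 2 or a Cnot6l-/- MI library was left out. Pabpc1l, the poly(A)-binding protein of oocytes, had 41.3 and 39.7 FPKM at MII, against 213 and 179 FPKM at MI (-2.24 ± 0.17, adjusted p = 1.08e-05). Paip2, which inhibits poly(A)-binding protein, had 68.9 and 102 FPKM at MII, against 595 and 578 FPKM at MI (-2.79 ± 0.18, adjusted p = 3.24e-06). Its relative Paip2b had 22.6 and 10.4 FPKM at MII, against 104 and 71.0 FPKM at MI (-2.41 ± 0.37, adjusted p = 0.00121). Paip1, which stimulates translation with poly(A)-binding protein, had 1002 and 979 FPKM at MII, against 613 and 700.0 FPKM at MI (0.60 ± 0.12, adjusted p = 0.0063), a call not kept with separate weights for each group. The stimulator thus rose and both inhibitors fell. The storage protein gene Csda, a Y-box protein, had 16.2 and 10.7 FPKM at MII, against 51.4 and 51.8 FPKM at MI (-1.89 ± 0.32, adjusted p = 0.00214).

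Of 22 transcripts listed, from background knowledge, as polyadenylated during maturation, 8 rose and 6 fell (36.4% and 27.3%, against 5.68% and 16.4% of all genes), and 13 rose and 4 fell after median scaling. Their median change was 0.37 (0.74 after median scaling), against -0.27 (-0.02) for all genes.

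Abundant oocyte genes fell, among them genes of the egg coat and the subcortical maternal complex. Of 10 tested genes of the zona pellucida, the egg coat, and of the subcortical maternal complex, an oocyte protein assembly needed for early cleavage, 1 rose and 7 fell (10% and 70%), and 2 rose and 6 fell after median scaling, with a median change of -1.22 (-0.84 after median scaling). Ooep had 210.3 and 239 FPKM in WT MII oocytes, against 2093 and 1858 FPKM in WT MI oocytes (-3.13 ± 0.089, adjusted p = 6.63e-09). Padi6 had 2437 and 2295 FPKM at MII, against 10193 and 10403 FPKM at MI (-2.12 ± 0.045, adjusted p = 8.2e-10). Tle6 had 1734 and 1643 FPKM at MII, against 7175 and 7332 FPKM at MI (-2.10 ± 0.052, adjusted p = 2.53e-09). In these 3 members of the complex both MII libraries lay far below both MI libraries. Nlrp5, the member also called Mater, had 542 and 596 FPKM at MII, against 736 and 782 FPKM at MI (-0.42 ± 0.10, adjusted p = 0.0164), and this call was kept in 14 of 23 alternatives. It was lost after median scaling (-0.04, adjusted p = 0.821), with TPM, with quantile normalization, without an abundance trend, with separate weights for each group, in the 6 WT libraries alone, in the WT MI and MII libraries alone, without WT MI library 2 (adjusted p = 0.0826) and without WT MII library 1 (adjusted p = 0.0727), over a range of 0.00773 to 0.821 across the alternatives. Zbed3, also a member, was the single increase, with 14575 and 14384 FPKM at MII, against 8332 and 8175 FPKM at MI (0.81 ± 0.041, adjusted p = 5.18e-07). Its replicates were nearly equal at both stages. Zp3, the zona protein that binds sperm, had 3035 and 2992 FPKM at MII, against 9431 and 9977 FPKM at MI (-1.69 ± 0.036, adjusted p = 8.2e-10). The zona gene Zp2 had 1719 and 1664 FPKM at MII, against 2754 and 2932 FPKM at MI (-0.75 ± 0.070, adjusted p = 3.93e-05).

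Of 16 Obox and other oocyte transcription factor genes, 2 rose and 6 fell (12.5% and 37.5%, against 5.68% and 16.4% of all genes), and 2 rose and 5 fell after median scaling, with 1 increase as deposited when WT MI library 1 or a Cnot6l-/- MI library was left out. Nobox, a homeobox factor of folliculogenesis, had 104 and 115 FPKM at MII, against 368 and 435 FPKM at MI (-1.86 ± 0.12, adjusted p = 3.44e-06). Lhx8, another such homeobox factor, had 36.1 and 21.1 FPKM at MII, against 155 and 116 FPKM at MI (-2.24 ± 0.25, adjusted p = 0.000147). Obox2 had 1865 and 2026 FPKM at MII, against 4179 and 4260.2 FPKM at MI (-1.12 ± 0.056, adjusted p = 5.18e-07). By contrast Sall4, a zinc finger factor needed in oocyte growth, had 960.4 and 1027 FPKM at MII, against 544 and 557 FPKM at MI (0.85 ± 0.17, adjusted p = 0.00531). Of 9 Nlrp genes outside the complex none rose and 4 fell (0% and 44.4%), whereas 2 rose and 2 fell after median scaling. Nlrp14, among the decreases, had 1157 and 1078 FPKM at MII, against 3075 and 3260.0 FPKM at MI (-1.50 ± 0.062, adjusted p = 1.23e-07).

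Among 28 secreted and oocyte-restricted genes 4 rose and 19 fell (14.3% and 67.9%), and 9 rose and 13 fell after median scaling. Gdf9, a growth factor that acts on follicle cells, had 5797 and 6006 FPKM at MII, against 10680.1 and 11484 FPKM at MI (-0.91 ± 0.056, adjusted p = 2.25e-06). Its relative Bmp15 had 869 and 871 FPKM at MII, against 2205 and 2105 FPKM at MI (-1.31 ± 0.069, adjusted p = 6.38e-07). Npm2, a histone chaperone that decondenses sperm chromatin, had 488 and 338 FPKM at MII, against 3207 and 3302 FPKM at MI (-2.999 ± 0.13, adjusted p = 2e-07). Oas1c had 136 and 131 FPKM at MII, against 1005 and 1001 FPKM at MI (-2.90 ± 0.10, adjusted p = 2.14e-08), whereas its paralog Oas1d had 7963 and 7739 FPKM at MII, against 5670.4 and 5594 FPKM at MI (0.48 ± 0.081, adjusted p = 0.00205). Oog3, an oocyte-restricted gene, had 4445 and 4521 FPKM at MII, against 2642 and 2697 FPKM at MI (0.75 ± 0.067, adjusted p = 3e-05). Both MII libraries thus separated from both MI libraries in opposite directions for the paralogs Oas1c and Oas1d. The very abundant Bcl2l10, an anti-apoptotic gene, had 11485 and 11189.5 FPKM at MII, against 15025 and 14827 FPKM at MI (-0.40 ± 0.029, adjusted p = 8.23e-06), and its change after median scaling was -0.02 (adjusted p = 0.682).

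Of 33 genes of DNA methylation and maternal chromatin, 4 rose and 8 fell (12.1% and 24.2%), and 5 rose and 8 fell after median scaling, the increases as deposited numbering 2 when any of 7 libraries was left out. H1foo, the linker histone of oocytes, had 17124 and 16519.6 FPKM at MII, against 26725 and 27085 FPKM at MI (-0.68 ± 0.045, adjusted p = 3.44e-06). Dppa3, which protects the maternal genome from demethylation, had 10317 and 9526 FPKM at MII, against 18125 and 19234 FPKM at MI (-0.91 ± 0.046, adjusted p = 5.18e-07). Tet3, the dioxygenase that acts on the paternal genome after fertilization, had 225 and 208 FPKM at MII, against 123 and 104 FPKM at MI (0.92 ± 0.17, adjusted p = 0.00327). Tet3 was the only increase named here from this group. Of 20 genes of egg activation, calcium and sperm fusion, none rose and 6 fell (0% and 30%), and 2 rose and 6 fell after median scaling, with a median change of -0.70 (-0.58 after median scaling), and as deposited 1 rose when WT MI library 1 or 2 was left out. Calm2, 1 of the genes for calmodulin, had 86.4 and 97.2 FPKM at MII, against 814 and 779 FPKM at MI (-3.10 ± 0.10, adjusted p = 1.13e-08). Prkcd, a protein kinase C, had 1 and 0.98 FPKM at MII, against 10.5 and 19.7 FPKM at MI (-2.95 ± 0.44, adjusted p = 0.00093). Both genes were far lower in each MII library.

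High shares of decreases were also found among housekeeping machines. Of 85 cytosolic ribosomal protein genes 3 rose and 56 fell (3.53% and 65.9%, against 5.68% and 16.4% of all genes), and 7 rose and 44 fell after median scaling, with a median change of -1.17 (-0.81 after median scaling). The 3 that rose were Rps15a, Rps27l and Rpl41. Rpl41 had 5554 and 5753 FPKM in WT MII oocytes, against 3304 and 3330.0 FPKM in WT MI oocytes (0.77 ± 0.079, adjusted p = 7.45e-05). Rps27l, a p53-responsive paralog of Rps27, had 1472 and 1734 FPKM at MII, against 557 and 693 FPKM at MI (1.36 ± 0.15, adjusted p = 0.000104). Rps27 itself had 0.65 and 26.1 FPKM at MII, against 269 and 165 FPKM at MI (-4.98 ± 0.97, adjusted p = 0.00428), with its MII replicates far apart and its call not kept in the 6 WT libraries alone. Rps15a had 44.4 and 43.1 FPKM at MII, against 10.2 and 11.2 FPKM at MI (1.94 ± 0.35, adjusted p = 0.00299). Ribosomal protein genes have many processed copies in the genome, so their values are uncertain. The summed level of the 85 genes was 21494 and 22238 FPKM at MII, against 28726 and 29685 FPKM at MI.

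Mitochondrial genes also held many decreases. Of 42 respiratory complex I genes none rose and 26 fell (0% and 61.9%), and 1 rose and 21 fell after median scaling, with a median change of -1.37 (-1.01 after median scaling). Of 48 genes of complexes II to V, 1 rose and 28 fell (2.08% and 58.3%), and 6 rose and 19 fell after median scaling. The increase as deposited was Sdha, the flavoprotein of succinate dehydrogenase, with 111 and 131 FPKM at MII, against 57.7 and 52.4 FPKM at MI (1.12 ± 0.22, adjusted p = 0.00425). Of 75 mitochondrial ribosomal protein genes 3 rose and 30 fell (4% and 40%), and 7 rose and 22 fell after median scaling, with a median change of -0.87 (-0.50 after median scaling). As deposited, none rose when WT MI library 2 was left out. Mrps22 had 3.71 and 0.72 FPKM at MII, against 70.5 and 45.8 FPKM at MI (-4.34 ± 0.40, adjusted p = 3.66e-05). Mrpl55 was listed at 0 in both MII libraries and at 46.0 and 45.0 FPKM at MI (adjusted p = 1.83e-06), as was the complex I assembly factor Ndufaf3, at 14.6 and 22.4 FPKM at MI (adjusted p = 4.05e-05). In the 6 WT libraries alone, 31 of 85 cytosolic ribosomal, 15 of 75 mitochondrial ribosomal, 19 of 42 complex I and 17 of 48 complex II to V genes were called lower. Over all 11667 genes that fit called 975 lower.

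Protein synthesis, folding and degradation genes showed the same tendency. Of 44 proteasome genes 2 rose and 23 fell (4.55% and 52.3%), and 4 rose and 22 fell after median scaling. As deposited, 1 rose in most fits that left out a library. Psmb3, a core subunit, had 1038 and 1158 FPKM at MII, against 483 and 391 FPKM at MI (1.33 ± 0.19, adjusted p = 0.000697), and Psmc2, a base ATPase, had 1.56 and 0.75 FPKM at MII, against 33.3 and 32.7 FPKM at MI (-4.00 ± 0.36, adjusted p = 3.04e-05). Of 16 genes of the CCT chaperonin and prefoldin, which fold actin and tubulin, none rose and 8 fell (0% and 50%), and none rose and 7 fell after median scaling (median change -0.82, and -0.44 after median scaling), with 1 increase as deposited without WT MI library 2. Cct5 had 71.4 and 33.4 FPKM at MII, against 357 and 373 FPKM at MI (-2.87 ± 0.32, adjusted p = 0.000118). Tcp1 had 14.4 and 35.6 FPKM at MII, against 139 and 133 FPKM at MI (-2.53 ± 0.36, adjusted p = 0.000724). Both subunits were lower in each MII library. Of 61 translation factor genes 4 rose and 20 fell (6.56% and 32.8%), and 5 rose and 18 fell after median scaling. Of 23 aminoacyl-tRNA synthetase genes 1 rose and 11 fell (4.35% and 47.8%), and 2 rose and 8 fell after median scaling. As deposited, 13 translation factor genes fell without WT MI library 1 and 7 synthetase genes without WT MI library 2. Eif5b, which joins ribosomal subunits, had 116 and 93.7 FPKM at MII, against 38.6 and 39.1 FPKM at MI (1.40 ± 0.22, adjusted p = 0.00115). Eif2b1, a subunit of the exchange factor for initiation factor eIF2, had 1082 and 1153 FPKM at MII, against 735 and 667 FPKM at MI (0.67 ± 0.13, adjusted p = 0.00431). In the 6 WT libraries alone, 12 of 61 translation factor and 7 of 23 synthetase genes were lower, against 975 of all 11667 genes.

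**Figure D4:**
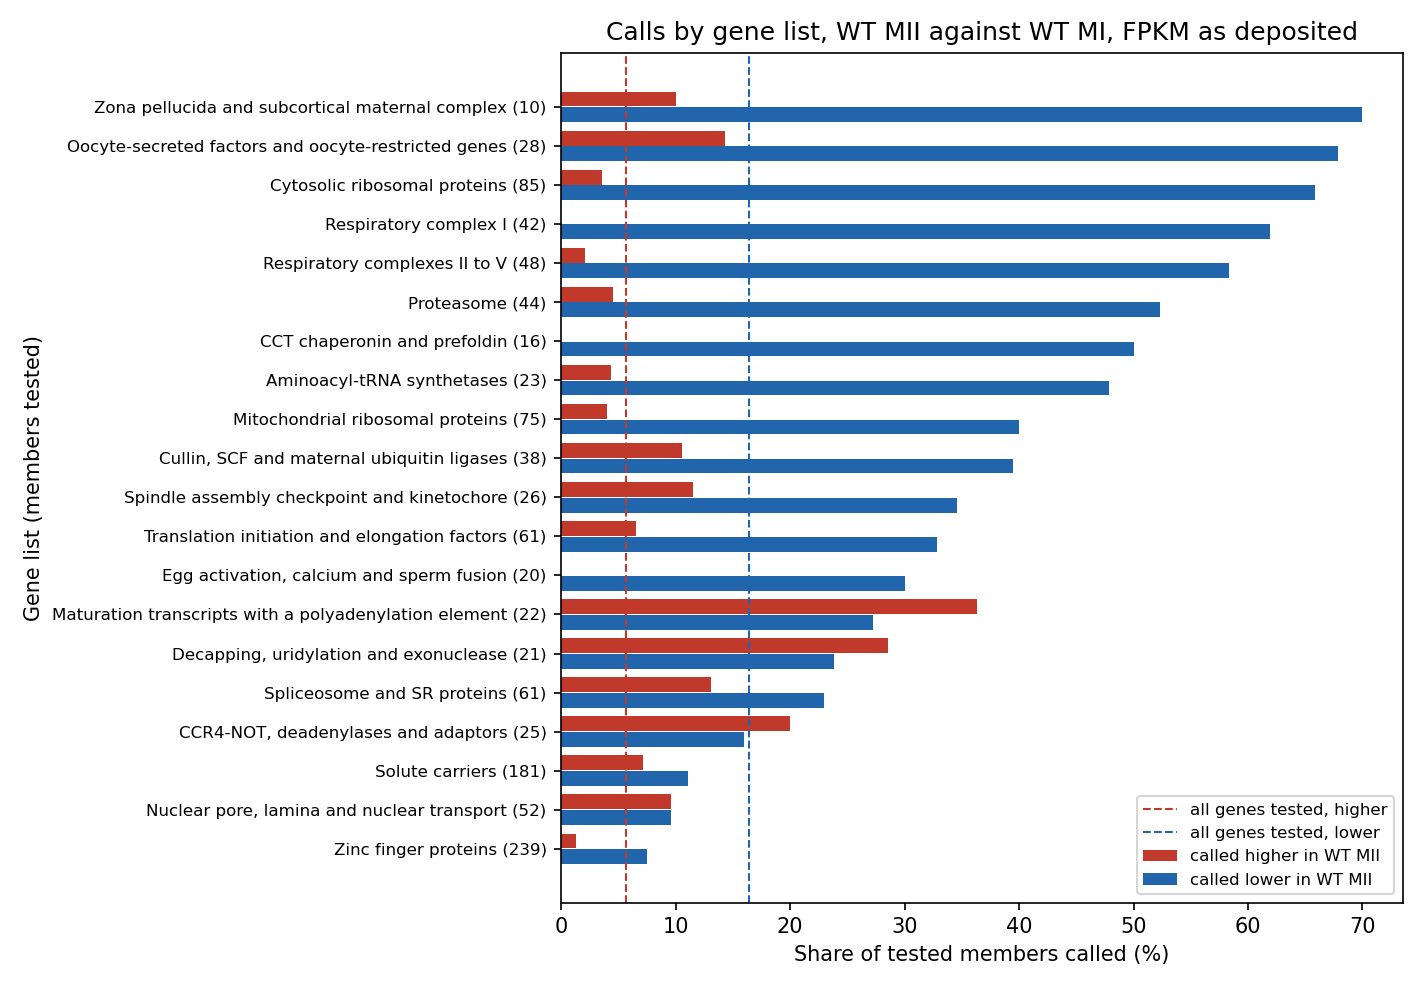
Share of the tested members (%) called higher (red) or lower (blue) in WT MII for 20 gene lists, with the number of members tested; dashed lines are the shares of all genes tested, 5.68% higher and 16.4% lower. Oocyte, ribosomal and respiratory lists lie far to the right for decreases, and the decapping and polyadenylation-element lists have the longest bars for increases. The dashed lines are not matched for the abundance of the list members.

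Metabolic genes were led by Ldhb, a lactate dehydrogenase subunit and the third most abundant entry at MII, with 21864 and 21472 FPKM in WT MII oocytes, against 31855 and 31549 FPKM in WT MI oocytes (-0.55 ± 0.031, adjusted p = 1.17e-06). Of 38 genes of glycolysis, pyruvate dehydrogenase and the TCA cycle 3 rose (0 to 3 in the fits that left out a library) and 12 fell (7.89% and 31.6%), and 6 rose and 8 fell after median scaling. As deposited, 7 or 6 fell without WT MI library 1 or 2. Among 35 antioxidant genes 1 rose and 11 fell (2.86% and 31.4%), and 3 rose and 9 fell after median scaling. The increase as deposited was Gstm5, a glutathione transferase, with 1183 and 1447 FPKM at MII, against 624 and 722 FPKM at MI (0.96 ± 0.16, adjusted p = 0.00173). Gsta4, another glutathione transferase, had 29.4 and 15.5 FPKM at MII, against 148 and 196 FPKM at MI (-2.93 ± 0.32, adjusted p = 0.000103). The transferase genes thus moved in opposite directions. In the 6 WT libraries alone, 5 of 38 genes of central metabolism and 4 of 35 antioxidant genes were lower, against 975 of all 11667 genes.

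Splicing, transcription, transport and ubiquitin genes held increases and decreases. Of 61 spliceosome genes 8 rose and 14 fell (13.1% and 23%, against 5.68% and 16.4% of all genes), while 16 rose and 10 fell after median scaling, with a median change of -0.03 (0.32 after median scaling). As deposited, 8 or 9 fell without WT MI library 1 or 2. Snrpg, a core protein of the small nuclear ribonucleoproteins, had 2447 and 2417 FPKM in WT MII oocytes, against 1367 and 1205 FPKM in WT MI oocytes (0.92 ± 0.10, adjusted p = 9.84e-05). Srsf4, a splicing regulator, had 181 and 210.2 FPKM at MII, against 69.3 and 76.7 FPKM at MI (1.41 ± 0.26, adjusted p = 0.0035). Both were higher in each MII library. Prpf3, of the particle of U4 and U6 small nuclear RNAs, had 0.87 and 1.26 FPKM at MII, against 26.7 and 39.5 FPKM at MI (-4.03 ± 0.46, adjusted p = 0.000151). Of 58 genes of the transcription machinery 8 rose and 17 fell (13.8% and 29.3%), and 11 rose and 12 fell after median scaling. As deposited, 3, 4 or 5 rose without WT MI library 1, WT MII library 1 or WT MII library 2. Med31, a subunit of Mediator, had 729 and 655 FPKM at MII, against 309 and 356 FPKM at MI (1.06 ± 0.14, adjusted p = 0.000433). Taf12, another TFIID subunit, had 17.8 and 34.2 FPKM at MII, against 116 and 173 FPKM at MI (-2.47 ± 0.31, adjusted p = 0.000257).

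In the secretory pathway 7 of 56 genes rose and 13 fell (12.5% and 23.2%, against 5.68% and 16.4% of all genes), while 13 rose and 10 fell after median scaling. Srp14, of the signal recognition particle, had 621 and 600.4 FPKM at MII, against 150.4 and 111 FPKM at MI (2.23 ± 0.18, adjusted p = 1.22e-05). Arf5, a GTPase of vesicle budding, had 462 and 543 FPKM at MII, against 168 and 137 FPKM at MI (1.72 ± 0.21, adjusted p = 0.000275). The coat protein gene Sec31a had 167 and 153 FPKM at MII, against 60.0 and 52.7 FPKM at MI (1.49 ± 0.25, adjusted p = 0.00195). For all 3 genes the stages were well separated. Calr, the calcium-binding chaperone of the endoplasmic reticulum, had 38.1 and 50.5 FPKM at MII, against 261 and 224 FPKM at MI (-2.44 ± 0.22, adjusted p = 2.8e-05).

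Of 52 nuclear pore and transport genes 5 rose and 5 fell (9.62% and 9.62%, against 5.68% and 16.4% of all genes), while 12 rose and 4 fell after median scaling, with a median change of -0.03 (0.30 after median scaling). As deposited, 3 rose when a Cnot6l-/- MI library was left out. Kpna2, an importin alpha, had 176 and 105 FPKM at MII, against 1078 and 1015 FPKM at MI (-2.93 ± 0.20, adjusted p = 4.8e-06). Ipo8, an importin beta relative, had 378 and 337 FPKM at MII, against 197 and 193 FPKM at MI (0.87 ± 0.15, adjusted p = 0.00205). The pore subunit Nup37 had 534 and 514 FPKM at MII, against 319 and 300.5 FPKM at MI (0.76 ± 0.14, adjusted p = 0.00367). Of 38 cullin and ubiquitin ligase genes 4 rose and 15 fell (10.5% and 39.5%), and 6 rose and 12 fell after median scaling. As deposited, 2 rose without WT MI library 1 or WT MII library 2. Ddb1, the adaptor of CRL4 ligases needed for oocyte survival, had 487 and 361 FPKM at MII, against 162 and 214 FPKM at MI (1.17 ± 0.22, adjusted p = 0.00341). Its scaffold Cul4b had 161 and 139 FPKM at MII, against 65.6 and 66.6 FPKM at MI (1.17 ± 0.21, adjusted p = 0.00299). Cops3, a subunit of the signalosome that removes NEDD8 from cullins, had 12.1 and 28.0 FPKM at MII, against 99.1 and 134 FPKM at MI (-2.57 ± 0.33, adjusted p = 0.000311). The CRL4 pair rose while the signalosome subunit fell. Of 181 solute carriers 13 rose and 20 fell (7.18% and 11%), and 22 rose and 19 fell after median scaling. Of 239 zinc finger protein genes 3 rose and 18 fell (1.26% and 7.53%), and 12 rose and 16 fell after median scaling. As deposited, without WT MI library 2 the carriers that fell numbered 11 and the zinc finger genes that rose 6, and without WT MII library 1 the zinc finger genes that rose numbered 7. In the 6 WT libraries alone, 6 of 61 spliceosome, 9 of 58 transcription, 6 of 56 secretory and 3 of 52 nuclear transport genes were lower. So were 8 of 38 ubiquitin ligase, 8 of 181 carrier and 8 of 239 zinc finger genes, against 975 of all 11667 genes. Called higher were 2 transcription and 5 carrier genes, against 305 of all genes.

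Some transcripts were listed at 0 at 1 stage. Of the genes tested, 2001 were at 0 in both MII libraries and 1003 in both MI libraries. At 0 in both MII libraries and at least 10 FPKM in both MI libraries were 62 genes, against 4 genes the other way round. Rabl5, a gene of intraflagellar transport, was at 0 at MII and at 60.8 and 79.4 FPKM at MI (adjusted p = 1.4e-05). Inha, the inhibin alpha gene of granulosa cells, was at 0 at MII and at 22.7 and 37.6 FPKM at MI (adjusted p = 4.64e-05). It is a follicle cell marker. The 29 such markers summed to less at MII, but so did the 11 oocyte markers, as given with the library totals. In the reverse direction Ube2d1, a ubiquitin-conjugating enzyme, was at 20.0 and 10.3 FPKM at MII and at 0 at MI (adjusted p = 0.00111). Rnpep, an aminopeptidase gene, was at 9.60 and 11.6 FPKM at MII and at 0 at MI (adjusted p = 0.00014). A listed 0 may be a failed estimate and is not evidence of absence.

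The change between MI and MII was then compared with that in Cnot6l-/- oocytes by an interaction term. The WT change was more positive than the Cnot6l-/- change for 433 genes (3.71% of those tested) and more negative for 328 genes (2.81%). After median scaling the counts were 273 (2.34%) and 506 (4.34%), and 267 and 328 genes were called in the same direction under both. The median change of all genes was -0.27 in WT and -0.59 in Cnot6l-/- oocytes, where 19 genes (0.163%) were higher and 838 (7.18%) lower at MII than at MI. The count of more negative changes was 650 without WT MII library 1 and 619 without WT MII library 2. Leaving out any Cnot6l-/- MI or MII library gave 169 to 227 more positive and 147 to 184 more negative changes.

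Oocyte genes had interaction calls in both directions as deposited. Of 28 secreted and oocyte-restricted genes the WT change was more positive for 6 and more negative for 14, and of 10 zona and subcortical maternal complex genes it was more positive for 3 and more negative for 6, against 3.71% and 2.81% of all genes. Ooep changed by -3.13 in WT and by -0.45 in Cnot6l-/- oocytes, where it had 2167 and 2297 FPKM at MII, against 3019.8 and 3072 FPKM at MI (difference -2.68 ± 0.13, adjusted p = 1.22e-06). Padi6 changed by -2.12 in WT and by -0.59 in Cnot6l-/- oocytes, where it had 12708 and 13789 FPKM at MII, against 19684 and 20275 FPKM at MI (difference -1.53 ± 0.063, adjusted p = 5.42e-07). As deposited, the decreases of both were thus steeper in WT oocytes. Relative to the median change of all genes in Cnot6l-/- oocytes (-0.59), Ooep stood at 0.14 and Padi6 at -0.002 there. Whether they fell in Cnot6l-/- oocytes therefore depended on the scale. For Dppa3 the signs were opposite, with -0.91 in WT and 0.70 in Cnot6l-/- oocytes (difference -1.61 ± 0.065, adjusted p = 5.42e-07). Calm2 changed by -3.10 in WT and by -0.36 in Cnot6l-/- oocytes (difference -2.74 ± 0.14, adjusted p = 1.61e-06), and Tacc3 changed by -4.30 in WT and by -1.66 in Cnot6l-/- oocytes (difference -2.64 ± 0.16, adjusted p = 7.97e-06). Among more positive changes, Srp14 changed by 2.23 in WT and by -0.64 in Cnot6l-/- oocytes (difference 2.87 ± 0.25, adjusted p = 0.00012). Zbed3 changed by 0.81 in WT and by -0.22 in Cnot6l-/- oocytes (difference 1.03 ± 0.057, adjusted p = 4.11e-06). Dcp1a changed by 2.16 in WT and by -0.01 in Cnot6l-/- oocytes (difference 2.17 ± 0.25, adjusted p = 0.000751).

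**Figure D5:**
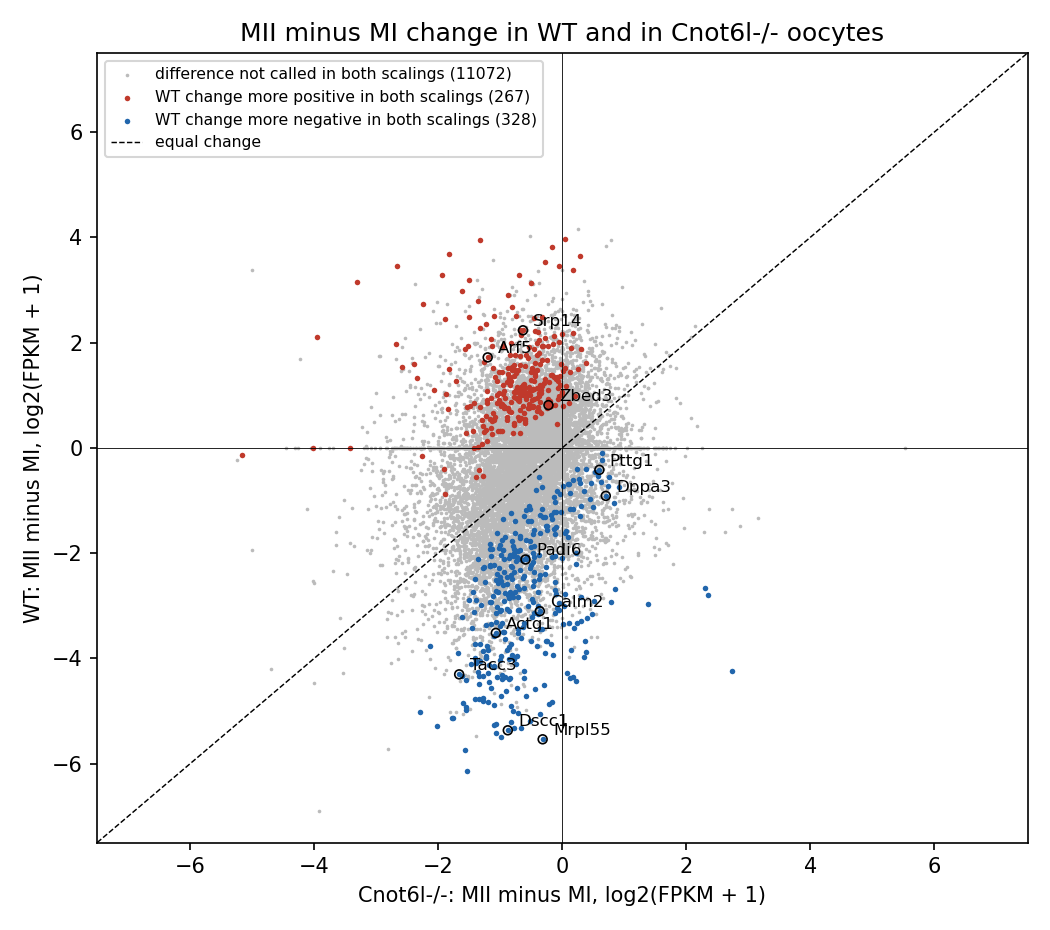
Change from MI to MII (log2(FPKM + 1)) in WT oocytes against that in Cnot6l-/- oocytes; each point is a gene, the dashed line marks equal change, and colors mark genes whose difference was called under both scalings (267 more positive and 328 more negative in WT). Tacc3, Calm2 and Padi6 lie below the line and Srp14, Arf5 and Zbed3 above it.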

How the data were processed

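Polysome-bound RNA of mouse oocytes had been sequenced from pre-amplified cDNA with Tn5-based libraries, per the labels' protocols. The authors deposited FPKM values per gene. The submitters' processing notes name the mm9 build, Cufflinks 2.2.1, Bowtie2 2.1.0, TopHat2 2.0.11 and CASAVA 1.8, without roles. For annotation, filters, strand and reads with several matches the method is not given in the sources used here. Values were read from the table of all libraries, not from those of single libraries.

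Genes with a mean of at least 1 FPKM were tested on log2(FPKM + 1) with limma 3.58.1 (R 4.3.3; 6 group means over 12 libraries, empirical Bayes with an abundance trend, 6 residual degrees of freedom), with Benjamini-Hochberg adjustment over 11667 genes and 2-sided tests. Values after ± are standard errors of that fit, and a fold on this scale understates the change of low genes. Median scaling divided each library by its median ratio to the gene means over genes of at least 10 FPKM. In simulated data for this contrast with 11667 genes, 71 of 100 changes of 3 log2 units and 50 of 100 of 2 log2 units were recovered, with 7 false calls. Changes were placed only in genes above about 10 FPKM, and each gene had equal spread in all groups. The real WT MII libraries resembled each other least of all replicate pairs, so these rates may not hold for the real contrast. Genes named are a selection from those fixed by rule: the 12 largest changes each way, up to 3 in each list and direction, the 10 most abundant at MII, the 5 highest of genes at 0 at the other stage, and 14 fixed genes; genes whose call survived the omission of any library were preferred. Members and lists were chosen with earlier results of these data known. Depth cannot be stated from FPKM. A few results are not reported here.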

Additional observations from a re-analysis of the deposited data

Results flagged for a closer look

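Of 146 genes followed by name, 23 had a change from MI to MII that differed between WT and Cnot6l-/- oocytes. Their adjusted p was under 0.001 both as deposited and after median scaling (limma interaction term, over all genes tested). That threshold was set after the values were seen, and genes listed at 0 in both libraries of a WT stage were left out. How many of all genes tested pass the same rule was not counted. Most of the 146 were chosen for a called WT change, which is part of the interaction term. The count of 23 was therefore partly fixed by the selection. The values below are the WT change minus the Cnot6l-/- change on the log2(FPKM + 1) scale, as deposited, with 2 libraries in each of the 4 groups.

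Among genes of the egg coat, the subcortical maternal complex and other oocyte-restricted genes with a negative fitted change in both genotypes, the change was more negative in WT for Ooep (-2.68), Padi6 (-1.53), Tle6 (-1.25), Zp3 (-0.76), Nlrp14 (-1.40), Npm2 (-2.45), Oas1c (-1.51) and Bmp15 (-1.03). It was also more negative in WT for Mcm5 (-3.52), Psmc1 (-3.48), Zw10 (-4.22), Tacc3 (-2.64), Actg1 (-2.44) and Calm2 (-2.74), which work in replication, degradation, the spindle, the cortex and calcium signalling. The adjusted p over these genes as deposited ran from 5.42e-07 to 0.000992. A negative sign in Cnot6l-/- oocytes is that of the deposited scale, where the median change of all genes was -0.59. Relative to that median, Ooep (0.14), Nlrp14 (0.49), Npm2 (0.05) and Bmp15 (0.31) were positive there. Padi6 stood at -0.002, and Tle6 (-0.26), Zp3 (-0.33) and Oas1c (-0.80) were negative. As deposited, the Cnot6l-/- change of Nlrp14 was not called (limma, adjusted p = 0.387).

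In a further set the fitted change was negative in WT and positive in Cnot6l-/- oocytes, with differences for Pttg1 (-1.02), Btg4 (-0.63), Obox2 (-1.61), H1foo (-0.96), Dppa3 (-1.61) and Bcl2l10 (-0.79). In Cnot6l-/- oocytes 6 of these 6 genes were called higher at MII than at MI, with adjusted p from 1.67e-05 to 0.0119 (limma). Over all genes tested 19 (0.163%) were called higher there. Since the set was formed by a positive change in Cnot6l-/- oocytes, its count is not separate support.

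The change was more positive in WT for Zbed3 (1.03), Srp14 (2.87) and Arf5 (2.92). As deposited, each was positive in WT and negative in Cnot6l-/- oocytes. There Arf5 was called lower (-1.20, limma, adjusted p = 0.00801), but Srp14 was not called (-0.64, adjusted p = 0.0552). The median change of all genes in Cnot6l-/- oocytes was -0.59, and relative to it Zbed3 stood at 0.37, so its negative sign depended on the scale. WT MII libraries listed fewer genes above 0 than Cnot6l-/- MII libraries (9116 and 9064, against 12112 and 11936), and the part of that difference in these values was not tested.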

How the results depend on the processing

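The count of genes higher at MII was 1289 with median scaling, 1060 with TPM, 1065 with quantile normalization, 305 in the 6 WT libraries alone, 263 with separate weights for each group and 0 in the WT MI and MII libraries alone, against 663 as reported. The count of genes lower was 975 in the 6 WT libraries alone, 1251 with separate weights and 0 in the WT MI and MII libraries alone, against 1911; those fits hold fewer libraries or give WT MII less weight. More positive WT than Cnot6l-/- changes numbered 273 with median scaling, 142 with quantile normalization and 80 without an abundance trend, and more negative ones 506 with median scaling and 100 without a trend; the cause was not tested. Leaving out 1 library gave 496 to 652 genes higher and 1517 to 2013 lower, and 169 to 575 more positive and 147 to 650 more negative interactions. The element was found in 43.7% of genes called higher and 18.4% of genes called lower with a window of 200 bases, and in 31.7% and 11.2% with calls after median scaling, an alternative chosen after seeing the data. The sign turned for Mos with median scaling (0.32), TPM (0.19) and quantile normalization (0.30), and for Cnot6l with median scaling (0.36), TPM (0.23), quantile normalization (0.26), and when 1 library was left out (-0.27 to 0.24, positive without WT MI library 1 and, at 0.18, without WT MII library 2); Pttg1 came to 0 with quantile normalization.

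With the replicate number as a block, 650 genes were higher and 1899 lower, and 405 and 308 interactions were called. Deviations of same-numbered WT MII and MI libraries correlated at -0.0292 (-0.0292 to 0.0547 over 15 pairs of groups), so no strong effect shared by replicate number was seen. These values cannot tell whether same-numbered libraries came from the same mice or preparation. Of 3356 values of the 146 genes followed under the alternatives, 3152 kept their direction and their side of the threshold. Named genes were preferred if their call survived the omission of any library, and many of the alternatives are such omissions. That count was therefore partly fixed by the selection and does not measure how stable calls are over all genes. Without read counts, depth and its limit on genes listed at 0 are unknown.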
